A study of Mus musculus with 24 samples.

Results

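Brown adipose tissue of mice given antimiR-224 was compared with brown adipose tissue of mice given scramblemiR, gene by gene. The genes described are those whose normalized count, averaged over the libraries of both groups, was at least 10, which held for 14537 of the 24084 genes in the authors' deposited table of this comparison. The 4 tables of the series together list 30699 genes, from 24 libraries in 6 groups of white and brown fat. Both groups used here were C57BL/6 mice, and each was represented by 4 libraries of polyadenylated RNA. The scramblemiR group received an LNA oligonucleotide of scrambled sequence, and the antimiR-224 group received one complementary to miR-224. Either was injected 2 times beneath the skin at 25 mg/kg, so the control mice also carried an LNA oligonucleotide. The labels give neither the age nor the sex of these mice, do not state which arm of miR-224 was targeted, and do not say whether each library came from a separate mouse. P-values therefore measure the spread between these libraries, which may be technical. The series title links estrogen, miR-224 and miR-452 to gene networks of diabetes, and this comparison asks which brown fat transcripts differ when miR-224 is inhibited.

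Brown fat is the heat-producing adipose depot. Its cells are packed with mitochondria, in which the uncoupling protein UCP1 lets protons flow back without making ATP, and they take up large amounts of fatty acids and glucose under adrenergic and insulin control. A microRNA guides Argonaute proteins to partly complementary sites, mostly in 3′ untranslated regions (UTRs), and pairing of its seed with such a site lowers the level or the translation of the messenger RNA. An LNA antimiR binds the mature microRNA and blocks this pairing, so that transcripts with seed sites would tend to be higher after inhibition. Libraries of polyadenylated RNA do not measure mature microRNAs, and the inhibition itself was not measured here.

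The mature sequences of both arms of mouse miR-224 and of its neighbour miR-452-5p are shown because their seeds define the sites counted here. They are taken from RefSeq for GRCm38 and lie on the minus strand of chromosome X, at X:72261085-72261105 for miR-224-5p, X:72261037-72261058 for miR-224-3p and X:72262271-72262292 for miR-452-5p. They are printed 5′ to 3′ with the seed, bases 2 to 8, in capitals, and the 3 seeds differ from each other.
mmu-miR-224-5p: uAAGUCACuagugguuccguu
mmu-miR-224-3p: aAAUGGUGcccuagugacuaca
mmu-miR-452-5p: uGUUUGCAgaggaaacugagac
An 8-base site for miR-224-5p is GTGACTTA on the sense strand of the transcript, and a 7-base site is GTGACTT. The 8-base site was present in the annotated 3′ UTR of 2.98% of 12509 coding genes. The 4 genes below are those among 17 reported miR-224 targets that carry it, with the site in capitals and the transcripts taken from GENCODE M21 for GRCm38. They are Egr2 at 10:67541976-67541999 and Ptx3 at 3:66225643-66225666, both on the plus strand, and Phlpp1 at 1:106393814-106393837 and Phlpp2 at 8:109941408-109941431, also on the plus strand. E2f3 at 13:29909137-29909160 and Klhl28 at 12:64942381-64942404, both on the minus strand, are added. They had the smallest p-values among lower genes with an 8-base site.
Egr2: atgctctgttttGTGACTTAaaag
Phlpp1: ttactctgtcagGTGACTTAagtc
Phlpp2: ccaatcaagcagGTGACTTAtgta
Ptx3: ttataccacaaaGTGACTTAttaa
E2f3: ggttgattacttGTGACTTAggag
Klhl28: ggcttttgaatgGTGACTTAgaga
A match is a description of these letters and does not show that the site is used.

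The deposited tables hold group means, and reads per library were recovered from the digits of those means for all control genes and for 12112 of the 14537 genes in the antimiR-224 libraries. Libraries are numbered within their group by descending size factor, since they could not be tied to the sample titles. Values given by library are normalized counts, in the order of libraries 1 to 4. Reads in genes numbered 16960694 to 20255777 per control library. Totals of the antimiR-224 libraries are unknown, since their most abundant genes were not recovered. There were 2 kinds of difference between libraries that bear on the results. The first is skeletal muscle RNA. The geometric mean of 18 muscle markers was 40825 and 38938 in control libraries 1 and 2, and 44.3 and 48.6 in control libraries 3 and 4. None of these markers was recovered in the antimiR-224 libraries, but over 18 less abundant muscle genes that were, the geometric means were 1075, 459, 1.52 and 2.75 in the controls and 334, 10.9, 5.44 and 6.49 after antimiR-224. Control libraries 1 and 2 and antimiR-224 library 1 therefore stand apart in muscle RNA. In bulk tissue, fewer cells of a type and less RNA per cell cannot be told apart.

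The second difference follows transcript length. Genes were sorted into 5 equal length groups by their annotated transcript, taken as the coding form with the longest 3′ UTR. Which form was expressed is not known from gene counts. In the shortest group the median gene was 0.43 higher on the log2 scale in antimiR-224 library 3 than in the other 7 libraries and 0.25 higher in antimiR-224 library 1, and it was 0.28 lower in control library 1 and 0.21 lower in control library 4. In the longest group the same medians were -0.41, -0.28, 0.29 and 0.08. The other 4 libraries stayed between -0.04 and 0.10 in both the shortest and the longest group. The antimiR-224 and control libraries that deviate do so in opposite directions, and the comparison carries both. The median log2 ratio of antimiR-224 to scramblemiR was 0.26 for the shortest length group (258 to 1773 bases), 0.04, -0.06 and -0.16 for the next 3, and -0.26 for the longest length group (5148 to 123179 bases). The share of genes above 0 went from 78.6% in the shortest to 14.1% in the longest group. In white fat the same medians ran from -0.06 to 0.02. In brown fat after antimiR-452, set against the same control libraries, they ran from 0.39 in the shortest to -0.19 in the longest group. AntimiR-224 library 1 also had low values for genes poor in G and C, with a median deviation of -0.98 in the lowest of 5 equal groups by GC content. For gene groups with at least 9 recovered members, the median difference is therefore also given under 2 further settings. In the first setting the 4 libraries that follow transcript length are left out (control libraries 1 and 4, antimiR-224 libraries 1 and 3). This leaves 2 libraries on each side. Of those, only control library 2 is muscle-rich, so that this setting still carries a muscle difference. The other setting is a correction for GC content and length within each library. The correction moved the median difference of all recovered genes from -0.09 to 0.06, and corrected values are to be read against 0.06. A gene whose shorter form is expressed would be corrected at the wrong length. Ndufb2, for example, was placed at 4371 bases, and its difference of 0.75 became 1.05 after the correction.

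**Figure D1:**
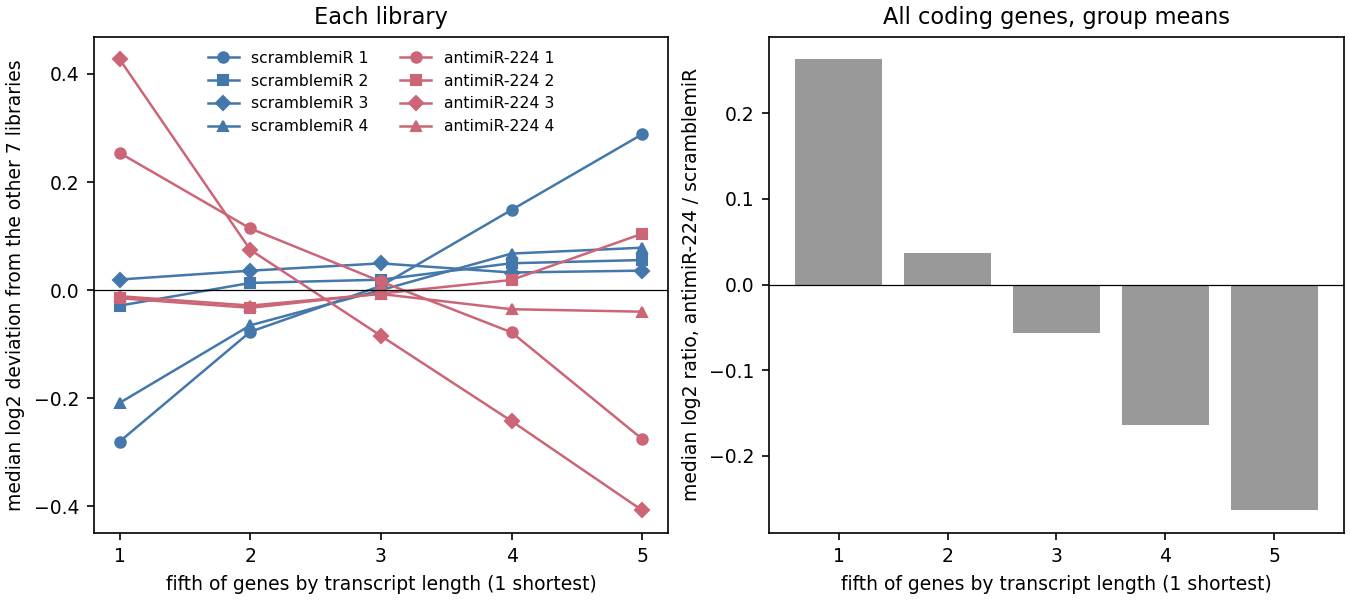
Left, median log2 deviation of each library from the other 7 (y axis) over coding genes in 5 equal groups by transcript length (x axis, 1 shortest), with scramblemiR libraries in blue and antimiR-224 libraries in red. Right, median log2 ratio of the group means for the same groups of genes: it runs from 0.26 in the shortest to -0.26 in the longest group, and 2 red lines fall with length while 2 blue lines rise with it.

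After antimiR-224, 0 genes had an adjusted p under 0.05 in the authors' deposited table, and all its adjusted p-values were 1. Adjusting the deposited p-values over the 14537 genes alone also called 0 genes. An unadjusted p under 0.05 was given to 189 of these genes (1.3%) by the authors' deposited table, of which 90 had a higher mean (0.619%) and 99 a lower mean (0.681%) after antimiR-224. Over all 24084 genes of the authors' deposited table the count was 276 (1.15%). limma on the recovered libraries, run on log2(normalized count + 1), called 0 of 12112 genes, with a lowest adjusted p of 0.734. At an unadjusted p under 0.05 limma counted 702 genes (5.8%), and 406 had higher (3.35%) and 296 lower (2.44%) values. That count depended on single libraries: it was 233 without control library 1, 262 without antimiR-224 library 3 and 1150 without antimiR-224 library 1. It was 334 after the GC and length correction, with 263 of them higher, and 585 without the 3 muscle-rich libraries (4.83%). In simulated data of this size limma called 58 of 100 genes changed 2-fold and 97 of 100 changed 4-fold, but no simulated library stood apart. The median log2 ratio over all 14537 genes was -0.05, with 6471 genes above 0 (44.5%) and 8066 below 0 (55.5%). Ratios of at least 1 were found for 81 genes (0.557%) and of -1 or less for 692 genes (4.76%). Muscle-rich libraries also stood apart at this size of difference. Among 10233 recovered coding genes, control libraries 1 and 2 had 1111 and 786 genes over 2-fold above the median of the other 7 libraries. They had 212 and 113 genes over 2-fold below it. AntimiR-224 library 1 had 819 above and 1331 below. The part of single libraries in the count of low ratios was not tested. The groups did not overlap, with every library of one group above every library of the other, for 274 higher genes (2.26%) and 165 lower genes (1.36%), 3.62% in all.

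**Figure D2:**
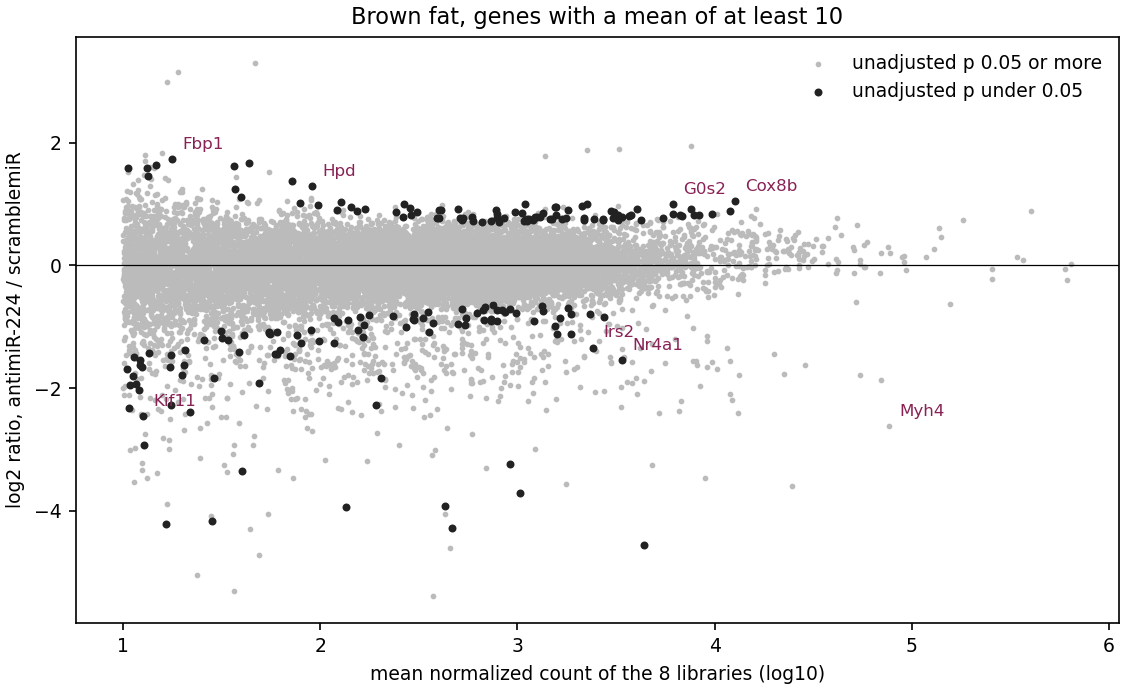
Log2 ratio of the group means, antimiR-224 over scramblemiR (y axis), against the log10 mean normalized count of the 8 libraries (x axis), 1 point per gene with a mean of at least 10. Dark points mark the 189 genes with an unadjusted p under 0.05 in the authors' deposited table, Irs2 and Nr4a1 lie below 0, G0s2 and Cox8b lie at or above 1, and the muscle gene Myh4 is far below 0 without a dark point.

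Among genes with a lower mean, the smallest p-values belonged to Irs2 and a group of small, low-count genes. Irs2, which encodes an adaptor that carries the signal of the insulin receptor to PI3-kinase, lies at 8:10984681-11008458 on the minus strand. Its control libraries held 3341, 1850, 5087 and 3531 (3452 ± 1324, SD, n = 4), and the authors' deposited table gives an antimiR-224 mean of 1363 and an unadjusted p of 0.00146. The antimiR-224 mean was below each control library, and the log2 ratio was -1.34. Values of the single antimiR-224 libraries could not be recovered for Irs2.

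Kcna1, a voltage-gated potassium channel gene, had 94.3, 114, 81.5 and 56.5 in the controls and 34.3, 52.6, 25.0 and 15.2 after antimiR-224. Mapk6, which encodes the atypical kinase ERK3, had 970, 634, 592 and 631 in the controls and 325, 474, 313 and 444 after antimiR-224. In both genes every antimiR-224 library was below every control library. The limma difference was -1.51 ± 0.40 (SE) for Kcna1 and -0.85 ± 0.22 (SE) for Mapk6, with an exact permutation p of 0.0286 for each. With 4 libraries on each side no smaller permutation p is possible. Without the libraries that follow transcript length the difference of Kcna1 was -1.73 and that of Mapk6 was -0.42. Cpeb4, an RNA-binding protein that controls poly(A) tails, had 1336, 978, 745 and 1042 against 208, 686, 572 and 727. Its groups did not overlap either, but its difference of -1.02 was -0.27 without those libraries and -0.42 without the 3 muscle-rich ones. Acsl3, an acyl-CoA synthetase, had 1280, 1121, 637 and 795 against 284, 627, 694 and 447, so that 1 antimiR-224 library lay within the control range. Its difference of -0.93 was -0.30 without the muscle-rich libraries.

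Tal2, a helix-loop-helix transcription factor gene, had 24, 28, 6.35 and 13.1 in the controls and between 3.34 and 3.99 after antimiR-224. Mfap3l had 130, 105, 33.9 and 40.2 in the controls and at most 29.2 after antimiR-224. In both, the 2 muscle-rich control libraries were the highest. Leaving out the 3 muscle-rich libraries gave a difference of -1.20 for Tal2 and -0.61 for Mfap3l, against -1.86 and -1.74 with all 8. Gm17971, a predicted gene, had 51.8, 35.8, 66.7 and 26.1 against 5.59, 15.9, 4.54 and 24.5, without overlap. Its difference of -1.96 was -1.27 without the libraries that follow transcript length. The smallest limma p of all genes, 0.000982 unadjusted with an exact permutation p of 0.0286, belonged to ENSMUSG00000089672, for which no symbol was matched. It had 37.0, 24.2, 34.9 and 20.7 against 10.4, 6.68, 2.27 and 4.67, without overlap, and its difference of -2.21 was -2.19 without the libraries that follow transcript length. Vcan, which encodes the matrix proteoglycan versican, had 118, 59.0, 121 and 55.5 against 27.9, 32.6, 5.67 and 64.2, with 1 antimiR-224 library inside the control range.

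Genes with a higher mean and a small p were mostly short transcripts. G0s2 encodes an inhibitor of the triglyceride lipase ATGL. Its control libraries held 2824, 4878, 3017 and 5631, and the authors' deposited table gives an antimiR-224 mean of 8179 with an unadjusted p of 0.0112. Its log2 ratio was 1.0, and its antimiR-224 mean was above each control library. Apoc1, an apolipoprotein gene, had 1830, 2781, 3103 and 3481 in the controls, and 5300 is its antimiR-224 mean in the authors' deposited table (unadjusted p 0.0165). Clec2d, a lectin-like membrane protein gene, had 604, 673, 676 and 815 in the controls and an antimiR-224 mean of 1262 in the authors' deposited table (unadjusted p 0.0102). Both means were above each control library. The annotated transcripts of G0s2 and Apoc1 are 871 and 339 bases long, within the shortest length group.

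Fcor, a corepressor of the insulin-regulated factor FOXO1 in adipocytes, had 198, 294, 344 and 276 in the controls and 529, 452, 711 and 379 after antimiR-224. Its groups did not overlap, and its limma difference was 0.88 ± 0.24 (SE), with an exact permutation p of 0.0286. Without the libraries that follow transcript length the difference of Fcor was 0.38. Sult1a1, a sulfotransferase that conjugates phenols, had 727, 863, 555 and 850 against 1118, 1119, 1284 and 1337 (749 ± 143 against 1214 ± 113, SD, n = 4 each). Nupr1, a stress-induced chromatin protein gene, had 324, 301, 274 and 243 against 414, 461, 476 and 398. For these 2 genes the groups did not overlap, and the differences of 0.71 (Sult1a1) and 0.62 (Nupr1) were 0.82 and 0.57 without the libraries that follow transcript length. Sult1a1 had an unadjusted limma p of 0.00225, with an exact permutation p of 0.0286 and an adjusted limma p of 0.734. Ndufaf2, an assembly factor of respiratory complex I, had 228, 300, 354 and 277 against 438, 475, 651 and 419, again without overlap, and its difference of 0.77 was 0.45 without those libraries.

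Fbp1, a gluconeogenic phosphatase, had 6.47, 6.77, 7.41 and 12.0 in the controls and 33.5, 14.2, 40.8 and 19.8 after antimiR-224, without overlap. Hpd, an enzyme of tyrosine breakdown, had 50.8, 18.4, 28.6 and 113 against 114, 102, 180 and 118, where control library 4 lay inside the antimiR-224 range. Gstt2, a glutathione transferase, had 434, 569, 493 and 675 against 936, 906, 1550 and 646, with 1 library overlapping. The predicted genes Gm16418, Gm17634 and Gm8129 also belonged to the 10 higher genes with the smallest deposited p, with log2 ratios of 0.86, 1.68 and 1.0. Reads of predicted genes can come from near-identical copies, and their values are uncertain for that reason.

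**Figure D3:**
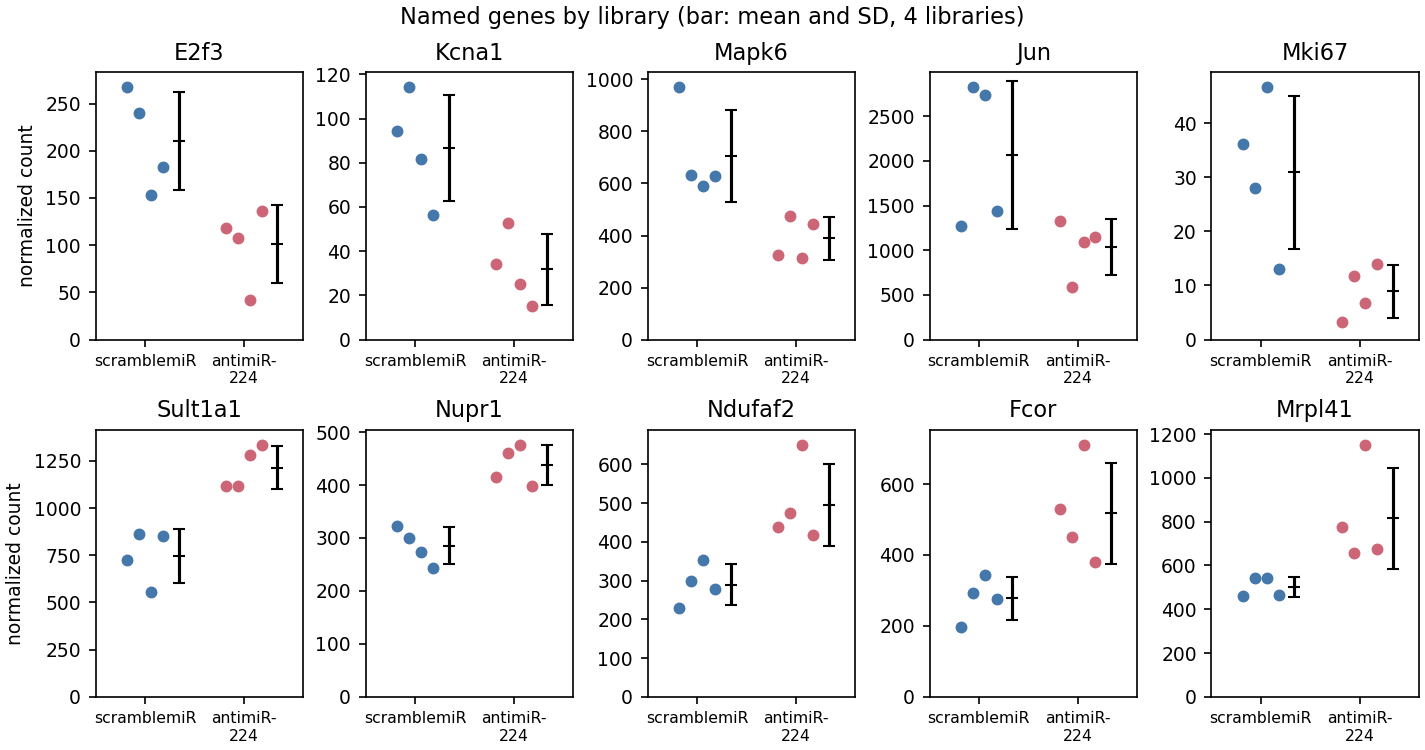
Normalized count (y axis) of 10 genes in each scramblemiR (blue) and antimiR-224 (red) library, with the mean and SD of 4 libraries as a bar beside the points. In E2f3, Kcna1, Mapk6, Sult1a1, Nupr1, Ndufaf2, Fcor and Mrpl41 the groups do not overlap, whereas Jun and Mki67 have an antimiR-224 library inside the control range.

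Insulin signalling genes were mostly below 0. Of 31 members of a list of insulin signalling and glucose uptake, 6 were above and 25 below 0 (44.5% and 55.5% of all genes), with a median of -0.24 against -0.05 over all genes. Besides Irs2, Tbc1d1 and Tbc1d4 had the smallest p-values; both restrain glucose transporter traffic until they are phosphorylated. Tbc1d1 had 356, 538, 300 and 221 in the controls and 239, 237, 218 and 181 after antimiR-224, overlapping at control library 4, and its difference of -0.62 was -0.29 without the muscle-rich and -0.95 without the length-following libraries. Tbc1d4 had 2380, 1868, 949 and 1250 against 939, 1266, 1003 and 1192, which also overlapped. The insulin-regulated glucose transporter Slc2a4 had a log2 ratio of 0.10, Akt2 (a kinase below the insulin receptor) 0.09, and Foxo1 (a transcription factor that insulin restrains) -0.06. Over the 19 recovered members the geometric mean was 564, 481, 470 and 472 in the controls and 456, 420, 344 and 424 after antimiR-224. These values did not overlap, and the median member difference of -0.32 became -0.13 without the libraries that follow transcript length and 0.02 after the GC and length correction. The median annotated transcript of this list is in the longest length group, and the part of length in these values was not tested further. A list of FoxO and fasting targets had 8 members above and 15 below 0, with a median of -0.32. Over the 9 recovered members the median difference was -0.33 with all libraries, -0.33 without the libraries that follow transcript length and -0.14 after the GC and length correction. Among them Sesn3, a stress-induced sestrin, had 473, 288, 264 and 284 against 196, 222, 170 and 243, without overlap (limma -0.62, exact permutation p 0.0286). Its difference was -0.25 without the libraries that follow transcript length and -0.38 without the muscle-rich ones. Pdk4, the kinase that restrains pyruvate dehydrogenase in fasting, had a log2 ratio of -0.59.

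Nuclear genes of the respiratory chain lay almost entirely above 0. Of 37 subunits of complex I (NADH dehydrogenase) 36 were above 0 (44.5% of all genes), with a median log2 ratio of 0.63. For 36 of them the antimiR-224 mean exceeded each control library, which held for 19% of all genes. All 4 genes of complex II were above 0 (median 0.40), as were all 9 of complex III (median 0.60), 12 of 13 of complex IV (median 0.74) and 13 of 15 of ATP synthase (median 0.46). At an unadjusted p under 0.05 the authors' deposited table has 8 genes of complex I, 2 of complex III, 5 of complex IV and 2 of ATP synthase with a higher mean (0.619% of all genes), and 0 with a lower mean. The geometric mean of complex I was 2856, 4304, 4504 and 3829 in the control libraries, with library 1 lowest, and 5869 over the antimiR-224 group means. Ndufa2 (complex I) had 1558, 2488, 2447 and 1855 in the controls and an antimiR-224 mean of 3840 in the authors' deposited table, a log2 ratio of 0.88 with an unadjusted p of 0.0237. Uqcr10 (complex III) had 3866, 6860, 7370 and 5807 in the controls and 10609 as its antimiR-224 mean in the authors' deposited table, a log2 ratio of 0.83. Atp5e, a small subunit of ATP synthase, had 3846, 6462, 5999 and 4768 and a log2 ratio of 0.91.

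Cox8b and Cox7a1 are complex IV subunits rich in brown fat and muscle. The control libraries of Cox8b held 5955, 8848, 10070 and 8135, and its antimiR-224 mean in the authors' deposited table was 17044 (unadjusted p 0.0213), a log2 ratio of 1.05. Cox7a1 had 3395, 5708, 5757 and 4954 in the controls and a mean of 8660 in the authors' deposited table (unadjusted p 0.047), a log2 ratio of 0.81. Cox6a2, the form of its subunit found in heart and skeletal muscle and named here after its values were seen, was the exception in complex IV at -1.27. Its control libraries held 2487, 2383, 0 and 5.44 and its antimiR-224 libraries 1953, 33.4, 21.6 and 15.2, so that it was high in the muscle-rich libraries.

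Most respiratory chain transcripts are short: the median annotated length was 918 bases in complex I, 618 in complex IV and 781 in ATP synthase. The median log2 ratio of the shortest length group was 0.26, with 78.6% above 0. Against control libraries 2 and 3 alone, which follow length least among the controls, the medians were 0.42 for complex I, 0.33 for complex II, 0.41 for complex III, 0.51 for complex IV and 0.25 for ATP synthase. The antimiR-224 side could not be split for most of these genes. For the 3 recovered complex I genes the geometric means were 494, 745, 733 and 552 in the controls and 877, 841, 1446 and 753 after antimiR-224. Their median difference was 0.75. It was 0.09 without the libraries that follow transcript length and 0.53 after the GC and length correction. For the 3 recovered genes of ATP synthase the median difference was -0.36, opposite in sign to that of the whole list, with -0.07 and -0.64 under the same 2 settings. The part of transcript length in the respiratory chain values was not tested further. Among 10 genes encoded by mitochondrial DNA 5 were above and 5 below 0, with a median of 0.02. The citric acid cycle, which feeds the respiratory chain, had 20 of 22 genes above 0 (median 0.19) and fatty acid oxidation 22 of 25 (median 0.25), with Etfb, an electron transfer protein of that pathway, at 0.84.

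Ribosomal proteins of mitochondria gave the most uniform list. All 74 members were above 0 (44.5% of all genes), with a median of 0.43 and a range from 0.05 to 0.85. Their median annotated transcript has 1357 bases, in the shortest length group. In that group 78.6% of genes were above 0, with a median of 0.26. limma put 16 of the 47 recovered members higher at an unadjusted p under 0.05 (3.35% of all genes) and none lower, and 12 did not overlap between the groups (2.26% of all genes). Mrpl33 had 633, 927, 835 and 602 in the controls and 1312, 1120, 2104 and 868 after antimiR-224, overlapping at 1 library. Mrpl41 had 458, 543, 543 and 464 against 775, 658, 1152 and 675, without overlap, and its difference of 0.66 was 0.30 without the libraries that follow transcript length. Mrps16, of the small subunit, had 518, 785, 943 and 750 against 1212, 953, 2000 and 917, overlapping at control library 3. In each of these genes antimiR-224 library 3 was the highest of all 8. The geometric mean of the 47 genes was 428, 549, 565 and 522 in the controls and 674, 573, 939 and 581 after antimiR-224, with no overlap. The median difference was 0.42 with all libraries, 0.03 without the libraries that follow transcript length, and 0.29 after the GC and length correction.

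Cytosolic ribosomal proteins had 62 members above and 15 below 0, with a median of 0.43. Their median annotated transcript, of 882 bases, is also in the shortest length group. Rps21 had 180, 273, 216 and 115 in the controls and 422, 305, 500 and 271 after antimiR-224, where the lowest antimiR-224 library was at the level of control library 2. Rpl39 had 274, 310, 344 and 214 against 509, 454, 834 and 339, with 1 library overlapping. Ribosomal protein genes have many near-identical pseudogene copies, so that their counts are uncertain. Over 60 recovered members the geometric mean was 128, 159, 171 and 142 in the controls and 169, 167, 243 and 148 after antimiR-224, which overlapped. The median difference of 0.35 became -0.03 without the libraries that follow transcript length and 0.05 after the GC and length correction.

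**Figure D4:**
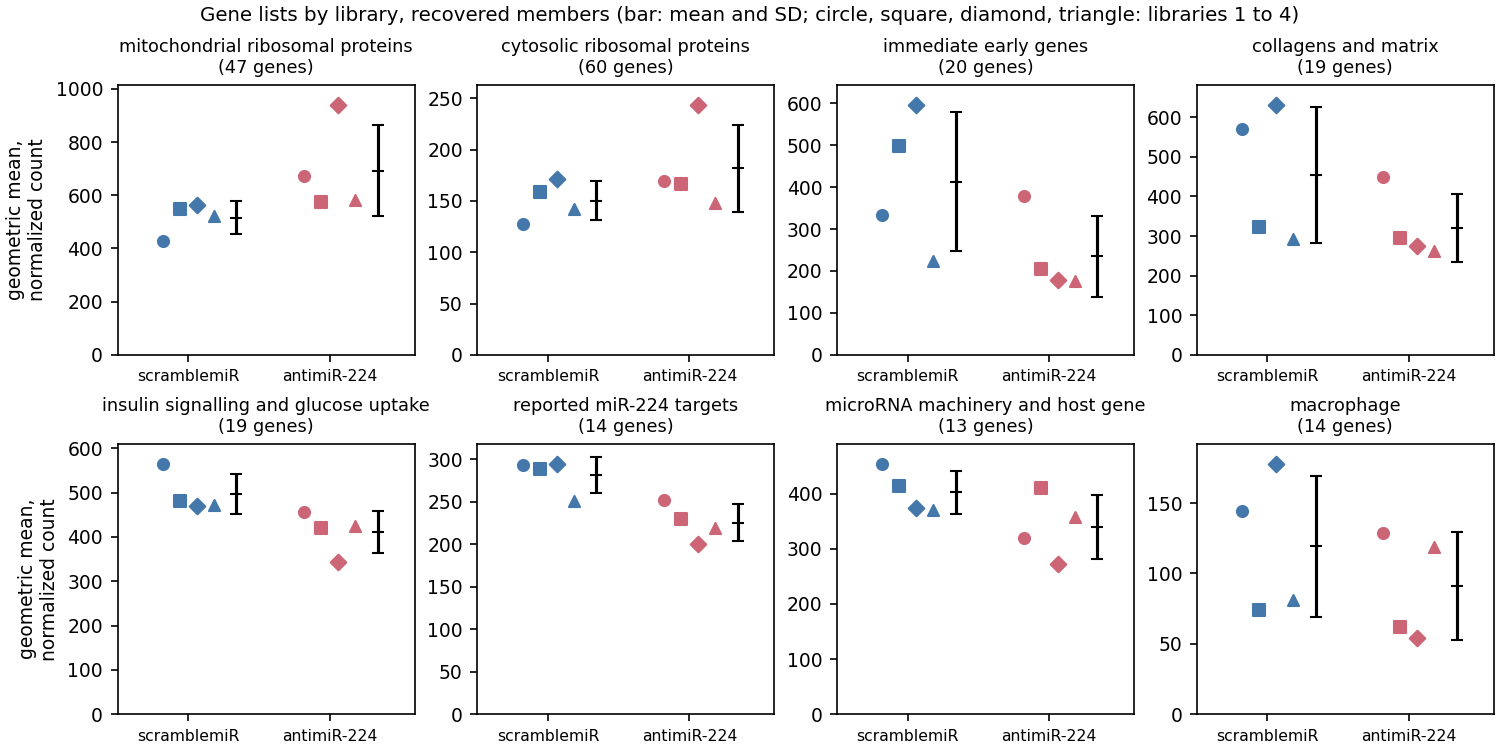
Geometric mean of the normalized counts over the recovered members of 8 gene lists (y axis) in each scramblemiR (blue) and antimiR-224 (red) library, with the mean and SD of 4 libraries as a bar. Mitochondrial ribosomal proteins are highest in antimiR-224 library 3 (939), and immediate early genes are highest in control library 3 (595), with antimiR-224 library 1 (379) inside the control range.

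Immediate early genes, the transcription factors and phosphatases induced within minutes by growth factors and adrenergic signals, were almost all below 0. Of 26 members 1 was above and 25 below 0 (55.5% of all genes), with a median of -0.60. The authors' deposited table put 2 of them lower at an unadjusted p under 0.05 (0.681% of all genes). Nr4a1, an orphan nuclear receptor induced by cAMP, had 4658, 4293, 9180 and 2163 in the controls and an antimiR-224 mean of 1735 in the authors' deposited table (unadjusted p 0.0197), a log2 ratio of -1.55. Jun, a subunit of the AP-1 factor, had 1267, 2824, 2738 and 1436 against 1324, 587, 1094 and 1143, so that only antimiR-224 library 1 reached the control range. Its limma difference was -0.96 ± 0.34 (SE), with an exact permutation p of 0.0571, and it was -1.76 without the libraries that follow transcript length. Those libraries include its lowest controls (1 and 4) and its highest antimiR-224 library (1). Csrnp1, a nuclear protein gene induced by AXIN1, had 411, 506, 797 and 327 against 409, 312, 167 and 248.

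The members with the lowest ratios, named after their values were seen, varied widely among the controls. Atf3, a stress-induced factor, had 296, 1875, 517 and 37.0 in the controls and 164, 74.4, 53.3 and 45.5 after antimiR-224. Fos, the partner of Jun, had 575, 2062, 515 and 156 against 1084, 135, 85.1 and 45.5. In both the groups overlapped. Over the 20 recovered members the geometric mean was 335, 498, 595 and 225 in the controls and 379, 205, 179 and 177 after antimiR-224. AntimiR-224 library 1 was above 2 controls, and the other 3 antimiR-224 libraries were below all controls. The median difference was -0.56 with all libraries, -0.98 without the libraries that follow transcript length and -0.44 after the GC and length correction. Leaving out the libraries that follow length removes the lowest controls (1 and 4) and the highest antimiR-224 library (1) of this list. limma put 4 of the 20 lower at an unadjusted p under 0.05 (2.44% of all genes). AntimiR-224 library 1, with the highest value of its group, is the muscle-rich one, and without the 3 muscle-rich libraries the median difference was -0.71.

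Defining markers of brown fat were abundant in both groups. Ucp1 held 43938, 68550, 130760 and 103460 in the controls, and its antimiR-224 mean in the authors' deposited table was 96156, a log2 ratio of 0.15 with an unadjusted p of 0.852. The control libraries with much muscle RNA had the lowest Ucp1, and against the other controls the antimiR-224 mean was lower. That mean still includes the muscle-rich antimiR-224 library 1, whose Ucp1 was not recovered, so that these 2 sides are not alike. Cidea, a lipid droplet protein of brown fat, had 25105, 40419, 48717 and 49761 and a log2 ratio of 0.66. Kcnk3, a potassium channel of brown adipocytes, had a log2 ratio of 0.32. Prdm16, the transcription factor that sets brown fat identity, was in the other direction. It had 763, 454, 735 and 540 in the controls and 320, 460, 457 and 371 after antimiR-224, overlapping at control library 2, with a limma difference of -0.61. That difference was -0.48 without the libraries that follow transcript length and -0.21 after the GC and length correction. Of 28 genes of thermogenic identity 16 were above and 12 below 0 (median 0.14), while the 11 less abundant members that were recovered had a median difference of -0.33. That median turned to 0.27 without the libraries that follow transcript length and to 0.01 after the GC and length correction. Of 23 adrenergic receptor and cAMP genes 4 were above and 19 below 0 (median -0.18). Over 12 recovered members their median difference of -0.27 turned to 0.07 without the libraries that follow transcript length and was -0.06 after the correction. Ppargc1a, the coactivator of mitochondrial genes, was named after its values were seen; it had 1114, 1732, 1640 and 1282 against 908, 1211, 1435 and 1262, which overlapped.

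Lists of lipid genes had medians near or above 0, and each had members below 0. Fatty acid uptake had 11 genes above and 7 below 0 (median 0.19). Its smallest unadjusted p in the authors' deposited table (0.00821) belonged to Acsl3, with a log2 ratio of -0.90. Fatty acid synthesis had 14 of 20 genes above 0 (median 0.23) and lipolysis 14 of 18 (median 0.23), and only 2 members of each were recovered by library. Fasn (fatty acid synthase) had a log2 ratio of 0.15, Scd1 (stearoyl-CoA desaturase) 0.02, Lpl (lipoprotein lipase) 0.47, Fabp4 (a fatty acid carrier of adipocytes) 0.60 and Pnpla2 (the lipase ATGL) 0.20. In the authors' deposited table the unadjusted p of these 5 genes ran from 0.514 for Fabp4 to 0.983 for Scd1. Of 24 cholesterol synthesis genes, Hsd17b7 had the smallest unadjusted p in the authors' deposited table (0.0474), with a log2 ratio of -0.81. The list had 15 genes above and 9 below 0 (median 0.07). Over 19 recovered members the median difference of 0.06 turned to -0.08 without the libraries that follow transcript length and was 0.19 after the correction. Among secreted proteins Cxcl14, a chemokine of brown fat, had between 221 and 252 in the controls and 379, 309, 454 and 283 after antimiR-224, without overlap (limma 0.57, exact permutation p 0.0286). Its difference was 0.33 without the libraries that follow transcript length. Adipoq, the adiponectin gene, had a log2 ratio of 0.38 and Cfd, the adipsin gene, 0.50.

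Collagen and matrix genes had 3 members above and 27 below 0 (44.5% and 55.5% of all genes), with a median of -0.40. Their median annotated transcript, of 5277 bases, is in the longest length group. In that group 14.1% of genes were above 0, with a median of -0.26. No member had an unadjusted p under 0.05 in either direction in the authors' deposited table. Col3a1, a fibrillar collagen, had 15128, 7047, 17248 and 6875 in the controls and an antimiR-224 mean of 8291 in the authors' deposited table. Control libraries 1 and 3 held much more than control libraries 2 and 4. Over 19 recovered members the geometric mean was 570, 324, 631 and 292 against 449, 294, 275 and 263, with overlap. The median difference of -0.45 became -0.67 without the libraries that follow transcript length and -0.11 after the GC and length correction. Macrophage markers were also highest in control libraries 1 and 3, with geometric means of 145, 73.8, 178 and 81.1 in the controls. After antimiR-224 they had 129, 61.9, 54.1 and 119, so that library 4 was not the lowest, unlike in collagens. Of 15 macrophage markers 2 were above and 13 below 0. Over 14 recovered markers the median difference was -0.36 with all libraries, -0.51 without the libraries that follow transcript length and -0.37 after the GC and length correction. Csf1r, the receptor that macrophages need, had 509, 252, 648 and 310 against 480, 154, 78.3 and 290.

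TGF-beta pathway genes had 9 above and 18 below 0 (median -0.21). Over 23 recovered members the median difference of -0.22 became -0.02 without the libraries that follow transcript length and 0.01 after the GC and length correction. Id3, an inhibitor of helix-loop-helix factors induced by bone morphogenetic proteins, was higher, with 423, 795, 930 and 797 in the controls and 942, 998, 1473 and 1214 after antimiR-224. Its groups did not overlap, at a limma difference of 0.69 and an exact permutation p of 0.0286, and the difference was 0.36 without the libraries that follow transcript length. The receptor gene Tgfbr1 had 749, 579, 449 and 476 against 144, 551, 442 and 456, with antimiR-224 library 1 lowest. Clock genes had 3 above and 16 below 0 (median -0.21). Arntl, which encodes the clock activator BMAL1, had 110, 114, 76.2 and 38.1 against 51.9, 51.0, 35.2 and 40.8, and Per1, a clock repressor, had a log2 ratio of -0.66. The median of the 11 recovered clock genes was -0.26 with all libraries, -0.18 without the libraries that follow transcript length and -0.01 after the GC and length correction.

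Mitotic genes were low in all libraries. Mki67, a marker of dividing cells, had 36.0, 28, 46.6 and 13.1 in the controls and 3.19, 11.7, 6.81 and 14 after antimiR-224. Kif11, a kinesin of the mitotic spindle, had 37.0, 26.1, 18 and 4.35 against 0.80, 6.68, 2.27 and 5.83. Control library 4 lay within the antimiR-224 range for both. The list of cell cycle and DNA replication had 8 of 19 genes above 0 and a median of -0.05, equal to that over all genes. Its 19 recovered members had a median difference of -0.08, which was -0.24 without the libraries that follow transcript length and 0.09 after the correction. Interferon response genes had 15 above and 10 below 0, with a median of 0.08. The median difference of the 25 recovered ones was 0.05, and it was 0.09 and 0.13 under the same 2 settings.

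**Figure D5:**
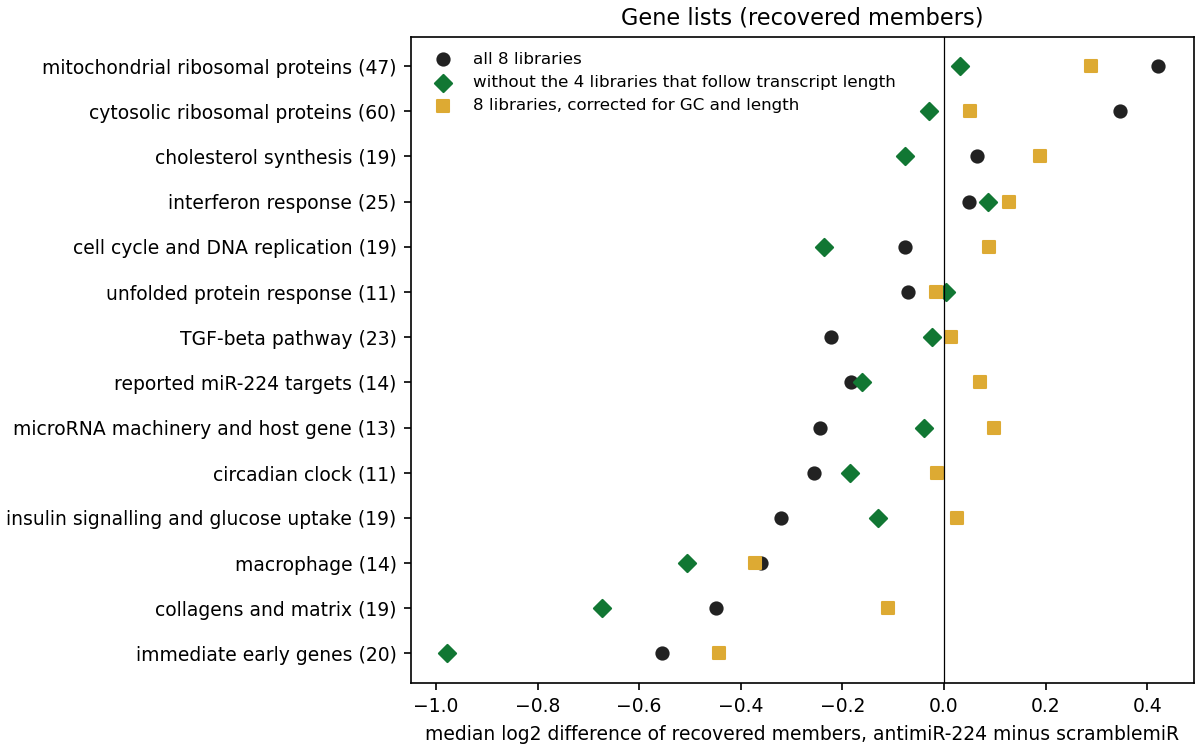
Median log2 difference of the recovered members of 14 gene lists (x axis, antimiR-224 minus scramblemiR, number of genes in brackets) with all 8 libraries, without the 4 libraries that follow transcript length, and with 8 libraries after correction for GC content and length. The medians of mitochondrial ribosomal proteins are 0.42, 0.03 and 0.29, and those of immediate early genes are -0.56, -0.98 and -0.44.

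Markers of other cells differed between libraries of the same group. All 18 skeletal muscle markers were below 0, with a median log2 ratio of -1.74. Myh4, a fast myosin heavy chain, had 248300, 277780, 107 and 229 in the controls and an antimiR-224 mean of 21374 in the authors' deposited table, so that the antimiR-224 mean lay between the 2 pairs of controls. Erythroid markers had 7 of 8 above 0 (median 1.42), and Hbb-bs, a beta-globin gene, had 252, 270, 8639 and 3443 in the controls and 12098 as its antimiR-224 mean in the authors' deposited table. The paralogous globin genes share reads, and their split is uncertain. T cell markers were high in 1 library, as Cd4 shows with 6.47, 7.74, 10.6 and 7.61 in the controls and 74.2, 15.9, 6.81 and 10.5 after antimiR-224. Ighm, the heavy chain of IgM in B cells, had 149, 374, 121 and 72.9 against 787, 171, 97.5 and 131. Csf3r, a receptor of neutrophils, had 28.7, 19.3, 39.2 and 18.5 against 11.2, 11.7, 0 and 10.5, without overlap, and its difference of -2.01 was -1.24 without the libraries that follow transcript length.

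Reported miR-224 targets were not higher after antimiR-224 as a list. Of 17 members 5 were above and 12 below 0 (44.5% and 55.5% of all genes), with a median of -0.16. In the authors' deposited table none of the 17 had an unadjusted p under 0.05 in either direction. By their annotated 3′ UTRs, 4 of the 17 hold an 8-base site for miR-224-5p, 8 hold a 7-base site only and 5 hold neither. Egr2, a zinc finger factor that is also an immediate early gene, had 21.3, 24.2, 67.8 and 13.1 in the controls and 23.9, 2.51, 10.2 and 1.17 after antimiR-224. Phlpp1 and Phlpp2 encode phosphatases that remove the activating phosphate of AKT. Phlpp1 had 472, 435, 690 and 741 against 601, 452, 358 and 540, and Phlpp2 had 292, 272, 273 and 380 against 196, 273, 170 and 265. Ptx3, a secreted pattern recognition protein gene, had 67.5, 33.9, 4.23 and 2.17 against 28.7, 7.52, 0 and 7.0. In these 4 genes with an 8-base site the groups overlapped, and each group mean was lower after antimiR-224.

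Of the targets without an 8-base site, Smad4 (the shared SMAD of TGF-beta signalling) had 1140, 1088, 930 and 1000 against 868, 848, 973 and 899. Cdc42, a small GTPase of the cytoskeleton, had a log2 ratio of 0.04. Pebp1, an inhibitor of RAF kinase, had 1155, 1595, 1580 and 1460 in the controls and a log2 ratio of 0.47, the highest of the 17. Trib1, a pseudokinase, had a log2 ratio of -0.48. The remaining targets ran from -0.31 (Ncoa6, a nuclear receptor coactivator) to 0.23 (Dpysl2, a protein of neuronal microtubules). Between them lay Acsl4 at -0.21, Tpd52 at -0.16, Api5 at -0.06, Ap2m1 at -0.03, Camkk2 at -0.01, Cxcr4 at 0.08 and Nit1 at 0.10. Over 14 recovered targets the geometric mean was 294, 289, 294 and 250 in the controls and 252, 229, 200 and 219 after antimiR-224, so that antimiR-224 library 1 lay just above control library 4. The median difference of -0.18 became -0.16 without the libraries that follow transcript length and 0.07 after the GC and length correction. The corrected median of all genes was 0.06.

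Across all coding genes, transcripts with a seed site had lower ratios than those without one, and so did transcripts with sites for the other seeds. The median log2 ratio was -0.15 for 373 genes with an 8-base miR-224-5p site, of which 71.6% were below 0, -0.15 for 1515 genes with a 7-base site only, and -0.05 for 10621 genes without a site. Over all 12509 coding genes with a 3′ UTR it was -0.06, with 57.8% below 0. It was -0.16 for 238 genes with an 8-base site of miR-224-3p (CACCATTA) and -0.17 for 522 genes with an 8-base site of miR-452-5p (TGCAAACA). At an unadjusted p under 0.05 the authors' deposited table had 85 lower and 66 higher of all 12509 genes. Among the 1515 genes with a 7-base miR-224-5p site only, 20 were lower and 1 higher. The 373 genes with its 8-base site had 3 lower and 2 higher, and the 522 genes of miR-452-5p had 10 and 0. Site-bearing genes have longer UTRs, with a median of 2799 bases against 1022 for genes without a site. In 5 equal groups by UTR length, the longest (2676 bases or more) had a median of -0.19 with an 8-base site and -0.19 without a site. The next 2 had -0.11 with and -0.13 without a site, and -0.16 with and -0.08 without. The 2 shortest groups, with only 25 and 10 site-bearing genes, had -0.02 against 0.02 and 0.02 against 0.14. After the GC and length correction the recovered genes with an 8-base site had a median of 0.09, against 0.06 over all recovered coding genes. No test was made of these medians.

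E2f3, a transcription factor of the cell cycle, had the smallest p among lower genes with a site. It had 267, 240, 154 and 183 in the controls and 118, 108, 42.0 and 136 after antimiR-224, without overlap, and a log2 ratio of -1.06. Its limma difference of -1.15 was -0.66 without the libraries that follow transcript length. Klhl28, a kelch-like protein gene, had 133, 70.6, 69.9 and 56.5 against 10.4, 53.5, 32.9 and 58.3, with 1 library overlapping. Cybb, the catalytic subunit of the phagocyte oxidase, had 114, 85.1, 179 and 53.3 against 55.1, 50.1, 27.2 and 78.1, which also overlapped. Usmg5 and Ndufb2 were the higher genes with the smallest p. Usmg5, a small ATP synthase subunit, had 467, 915, 871 and 659 in the controls and an antimiR-224 mean of 1463 in the authors' deposited table (unadjusted p 0.0283). Ndufb2, a complex I subunit, had 653, 1156, 1040 and 809 against 1523, 1272, 2493 and 1067, with 1 library overlapping. The site of both lies in a long annotated UTR form (2494 and 4012 bases), and which form was expressed is not known from gene counts.

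Genes that make and use microRNAs had 2 members above and 12 below 0, with a median of -0.22. Over 13 recovered members the median difference of -0.24 became -0.04 without the libraries that follow transcript length and 0.10 after the GC and length correction. The median annotated transcript of this list has 6882 bases, in the longest length group. Ago2, the Argonaute that can cut its target, had 1914, 1486, 1232 and 1622 in the controls and 1246, 1216, 811 and 1263 after antimiR-224, overlapping at control library 3. Its limma difference of -0.47 was -0.13 without the libraries that follow transcript length and -0.03 after the GC and length correction. Its transcript, at 13800 bases, is in the longest length group. Prkra, a partner of Dicer, was in the other direction, with 295, 313, 332 and 288 against 361, 446, 441 and 385. Its groups did not overlap, and its limma difference of 0.41 was 0.36 without those libraries. Dicer1, the enzyme that cuts microRNA precursors, had 1136, 1012, 914 and 1227 against 703, 1168, 677 and 1150, and Drosha, the nuclear processing enzyme, had 964, 897, 711 and 643 against 802, 684, 612 and 628. Both overlapped. The remaining members, Ago1, Ago3, Ago4, Dgcr8, Tarbp2, Tnrc6a, Tnrc6b, Tnrc6c and Xpo5, had log2 ratios between -0.41 and 0.07. Gabre, the receptor subunit gene whose locus hosts the 2 microRNAs, had 25.9, 19.3, 18 and 5.44 against 3.99, 18.4, 5.67 and 7.0, which overlapped.

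The same genes were read in white fat after antimiR-224 and in brown fat after antimiR-452. The tissue difference of the antimiR-224 effect, an interaction in limma over 16 libraries, called 0 of 11050 genes (lowest adjusted p 0.586), and 901 genes (8.15%) had an unadjusted p under 0.05, with 507 more positive in brown fat (4.59%) and 394 more negative (3.57%). Without brown fat control library 4 it called 1 gene, Arntl, at an adjusted p of 0.0409, against 0.586 with all 16 libraries. That library had the lowest Arntl of the brown fat controls (38.1). It was the only one of them inside the antimiR-224 range (35.2 to 51.9). Arntl had a log2 ratio of -0.92 in brown fat and 1.46 in white fat. Irs2 had a log2 ratio of 0.15 in white fat and Nr4a1 0.02. Mitochondrial ribosomal proteins had 3 genes above and 71 below 0 in white fat (median -0.20). The interaction in limma put 23 of their 46 tested members higher at an unadjusted p under 0.05 (4.59% of all genes). Their median annotated transcript, of 1357 bases, is in the shortest length group. That group had a median of 0.26 in brown fat and -0.06 in white fat. The interaction was not run without all the libraries that follow length or with the correction, and the part of length was not tested. All 37 complex I genes were below 0 in white fat, with a median of -0.30. Immediate early genes had 17 above and 9 below 0 there, with a median of 0.14.

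The antimiR-452 comparison in brown fat uses the same control libraries, so that its values are not independent. Irs2 had a log2 ratio of -1.87 there, against -1.34 after antimiR-224. Nr4a1 had -1.24 against -1.55, Sult1a1 0.62 against 0.70 and Cox8b 0.95 against 1.05. Both comparisons follow transcript length, from 0.39 to -0.19 and from 0.26 to -0.26 between the shortest and longest group. Complex I had a median of 0.67 against 0.63, immediate early genes -0.52 against -0.60 and interferon response genes 0.62 against 0.08.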

How the data were processed

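Messenger RNA of brown fat was selected with oligo-dT beads and made into libraries with a directional kit, per the labels' protocols. The submitters' processing notes name GRCm38.p4, DESeq 1.10.1 and R 2.15.3, and neither aligner nor counting tool is given in the sources used here. Per the file headers, the authors deposited for each gene a mean signal of normalized reads over all libraries and per group, the ratio of the group means, its log2, a p-value and an adjusted p-value. Of the identifiers, 99.48% matched a gene symbol.

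Each group mean is printed to about 15 digits and is a sum of 4 whole read numbers over size factors. These were decoded for 100% of genes in the controls and 89.92% (83.32% with a mean of at least 10) in antimiR-224 libraries, where the highest recovered mean was 1637. Simulated decoding gave 89.41% right and 0 wrong. No 2 libraries agreed within sampling noise (chi-square per degree of freedom at least 12.2). limma 3.58.1 in R 4.3.3 was run on log2(normalized count + 1), a scale that understates changes of low genes, with trend, robust variance and Benjamini-Hochberg adjustment. The deposited test covers all genes, abundant ones included. In simulated data 5.06% of unchanged genes had a limma p under 0.05. Tissues were treated as independent in the interaction.

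Named genes are the 10 higher and 10 lower with the smallest deposited p, the 3 most abundant and 3 of smallest p in each list, all reported targets and microRNA machinery genes, the 3 most abundant of each marker list, the 10 of smallest limma p and the 5 of smallest p in each direction with an 8-base site, of which some are not reported here. The gene lists and the genes described were chosen with earlier results of these data known. Libraries were called muscle-rich at over 3 times the median of 8, and following length where the shortest and longest of 5 length groups differed by over 0.25. Alternatives were other pseudocounts (0.5 and 5), minimum means, scaling, variance settings and left-out libraries. Gene models and UTRs came from GENCODE M21.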

Additional observations from a re-analysis of the deposited data

Results flagged for a closer look

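In each group of 4 libraries, the highest or lowest was compared with its neighbour, and the results below had 1 library far from the other 3. In all, 19 of 280 groups tested did so (6.79%), and chance gives about 1 in 20. Their causes were not tested. Values of gene lists are geometric means, over recovered members in the antimiR-224 libraries and over all members in the control libraries.

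AntimiR-224 library 1, the muscle-rich library of its group, was highest for Fos (1084, next 135), Cox6a2 (1953, next 33.4), the T cell gene Cd4 (74.2, next 15.9) and the B cell gene Ighm (787, next 171). It was also highest for the geometric means of immediate early genes (379, next 205), collagens and matrix (449, next 294), fibroblast markers (547, next 263) and Schwann cell markers (178, next 61.4). AntimiR-224 library 2 was lowest for the geometric mean of the 5 recovered glycolysis genes, of 18 in the list (257, next 283). Library 3 was lowest for Ago2 (811, next 1216) and for Csf3r (0, next 10.5). Library 4 was highest for the mitotic kinase gene Aurka (12.8, next 9.07) and for Hsd17b7 of cholesterol synthesis (166, next 120). Among the controls, library 1 was highest for Mapk6 (970, next 634) and Sesn3 (473, next 288) and lowest for Sdhb of complex II (11036, next 16252) and mt-Nd1 of complex I (264786, next 368978). Control library 2 was highest for complex IV genes (6727, next 4270), and control library 3 for the matrix gene Sparc (22777, next 16668).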

How the results depend on the processing

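No gene passed an adjusted p of 0.05 in the deposited test or in limma under any alternative that was run. The limma count at an unadjusted p under 0.05, 702 of 12112, was 1095 of 21657 with no minimum mean, 334 of 10233 after the GC and length correction and 340 when the 3 muscle-rich libraries were left out as well. Leaving out 1 library gave 233 (control library 1) to 1150 (antimiR-224 library 1), and 262 without antimiR-224 library 3. The other limma settings gave 573 to 708, and the deposited count of 189 was 276 with no minimum mean and 149 at a minimum of 50. The tissue interaction called 0 to 1 genes when 1 library was left out, the 1 without control library 4. Its count of 901 ran from 540 (without control library 1) to 1288 (without antimiR-224 library 2), with 572 without antimiR-224 library 3. The causes were not tested.

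Of 129 named genes 118 kept the sign of their difference under every alternative run for them. The 11 others were Acsl4, Ago3, Ap2m1, Api5, Camkk2, Cxcr4, Ighm, Nit1, Scd1, Ucp1 and mt-Nd1. Genes recovered by library had 9 alternatives, which left out each library in turn or used the log scale. Genes with an antimiR-224 group mean alone, such as Irs2, G0s2, Cox8b and Nr4a1, had 4, each without 1 control library. For those genes, leaving out an antimiR-224 library and the log scale were not tested. Of the list medians over all members, 120 values under alternatives stayed within 1 SD of the spread between libraries and 14 did not, and over recovered members 736 did and 34 did not. The GC and length correction, the choice of muscle-rich libraries by less abundant muscle genes, the removal of libraries that follow length and the use of control libraries 2 and 3 alone were chosen after seeing the data. No paired analysis was possible because recovered libraries cannot be tied to the replicate numbers of the sample titles. Single antimiR-224 libraries were recovered for no gene with an antimiR-224 mean above 1637, so that depth and rounding leave the most abundant genes with group means alone.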
